A study of Mus musculus with 25 samples.

Results

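The dual-specificity MAP kinase phosphatases described here are the products of 9 genes, Dusp1, Dusp2, Dusp4, Dusp5, Dusp6, Dusp8, Dusp10, Dusp14 and Dusp16, taken by gene symbol from a table of 47069 genes measured in whole pituitaries. Each symbol had 1 row, and all 9 genes were among the 19141 tested. The libraries came from hpg/hpg mice, whose Gnrh1 gene carries a deletion, so that neither sex makes gonadotropin-releasing hormone (GnRH) of its own. The groups were 6 females given GnRH, 5 females given placebo, 8 males given GnRH and 6 males given placebo. All 25 animals were hpg, the GnRH dose was 1 µg into the peritoneum once a day for 10 days, the placebo was saline, and pituitaries were taken 1 h after the last injection. The labels do not state the animals' ages, and nothing in the labels says whether animals shared a litter or a day of injection, so the p-values measure the spread between these animals only. Animals carry the numbers 1 to 25 of the labels.

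MAP kinases are switched on by phosphorylation of a threonine and a tyrosine in their activation loop, and dual-specificity phosphatases remove both phosphates. Many of these phosphatase genes are themselves transcribed in response to MAP kinase signalling, which makes them a negative feedback arm of the pathway. In gonadotropes, the pituitary cells that carry the GnRH receptor, GnRH is known to activate the ERK, JNK and p38 classes of MAP kinase. Dusp1, Dusp2, Dusp4 and Dusp5 encode nuclear, inducible enzymes, Dusp6 a cytoplasmic enzyme selective for ERK, and Dusp8, Dusp10 and Dusp16 enzymes that act on JNK and p38. Dusp14 encodes a small atypical member without the MAP kinase-binding domain of the others.

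Values are regularized log2 values, in which differences of genes with few reads are shrunken, so a fold taken from them may understate the change of such a gene. They are not scaled to transcript length, and levels are therefore compared between groups of animals and not between genes. All 11 markers of the other anterior pituitary hormone cells were tested, and 6 of 7 gonadotrope markers were, with Dmp1 below the filter. Being tested shows only a level above the filter and does not identify the tissue, as all 9 leukocyte markers were tested too. The gonadotrope list averaged 9.57 to 9.80 in GnRH females and 8.99 to 9.32 in placebo females, and 9.49 to 9.89 in GnRH males against 8.91 to 9.23 in placebo males. Averaged over the sexes, Fshb, the beta subunit of follicle-stimulating hormone, rose by 2.42 (SE 0.18, adjusted p = 4.55e-09 by limma). Of the 6 gonadotrope markers tested, 3 rose and 1 fell, where 1.71% of all genes were called in either direction. The receptor gene Gnrhr rose by 0.66 (SE 0.11, adjusted p = 0.00109) and Lhb, the beta subunit of luteinizing hormone, by 0.38 (SE 0.09, adjusted p = 0.0141), while Nr5a1, the gene of steroidogenic factor 1, had -0.38 (SE 0.09, adjusted p = 0.0222). Fshb had the largest difference in the list. Among 6 endothelial markers, Emcn and Plvap also rose, by 0.25 and 0.18, and the list averaged 9.62 to 9.88 in GnRH females, 9.48 to 9.73 in placebo females, 9.62 to 9.96 in GnRH males and 9.59 to 9.67 in placebo males. Of 9 leukocyte markers and 5 red blood cell markers 0 were called in the averaged comparison. These are too few genes for a count of 0 to be told apart from the 1.71% of all genes. No marker of any list was at 0 in every library, and the part of these shifts in the values below was not tested. In whole-pituitary RNA, more cells of a type and more RNA per cell cannot be told apart.

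In GENCODE M21 (GRCm38), Dusp1 lies on chromosome 17 from 26505590 to 26562128 (minus strand), Dusp5 on chromosome 19 from 53529109 to 53542431 (plus strand), Dusp6 on chromosome 10 from 99263231 to 99267489 (plus strand) and Dusp8 on chromosome 7 from 142079490 to 142095843 (minus strand). The promoters of 3 members are shown because they hold the rarer signal-response motifs among the windows searched. Windows from 250 bases before to 50 bases after the annotated start were matched for 8 of 9 members in RefSeq (build GRCm38.p6), all but Dusp4. Both strands were searched for the cAMP response element TGACGTCA, its core TGACG, the AP-1 site TGANTCA, the EGR site GCGNGGGCG and the CArG box, the motif bound by serum response factor. The core lies within the full cAMP element, so each full match also counts as a core match on both strands. Lines below read 5′ to 3′ on the strand of the gene, with capitals at the cAMP response element, its core and the CArG boxes. The Dusp1 window is chr17:26508423-26508722 on the minus strand, the Dusp5 window chr19:53528895-53529194 on the plus strand, and the Dusp8 window chr7:142095235-142095534 on the minus strand.
Dusp1: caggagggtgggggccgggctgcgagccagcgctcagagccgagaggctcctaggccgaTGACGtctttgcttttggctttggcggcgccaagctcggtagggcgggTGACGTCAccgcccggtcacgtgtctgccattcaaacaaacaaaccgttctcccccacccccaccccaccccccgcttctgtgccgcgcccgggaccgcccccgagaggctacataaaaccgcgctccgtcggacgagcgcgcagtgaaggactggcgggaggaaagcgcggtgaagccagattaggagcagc
Dusp5: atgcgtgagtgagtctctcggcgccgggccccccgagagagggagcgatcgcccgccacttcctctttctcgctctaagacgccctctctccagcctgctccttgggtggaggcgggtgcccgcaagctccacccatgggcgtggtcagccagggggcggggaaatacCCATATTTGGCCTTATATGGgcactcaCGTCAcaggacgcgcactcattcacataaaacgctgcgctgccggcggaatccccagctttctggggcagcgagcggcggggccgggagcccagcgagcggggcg
Dusp8: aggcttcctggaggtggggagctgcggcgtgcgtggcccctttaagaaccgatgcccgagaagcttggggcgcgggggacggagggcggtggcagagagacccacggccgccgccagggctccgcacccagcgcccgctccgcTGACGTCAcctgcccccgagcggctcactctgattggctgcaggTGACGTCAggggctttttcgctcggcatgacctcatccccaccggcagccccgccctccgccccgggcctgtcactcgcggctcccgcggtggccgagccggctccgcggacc
Dusp1 held 1 full cAMP response element, at position -143 from the start site, and Dusp8 held 2, at -107 and -63. Of all 32544 windows of this length, 1.80% held that element. Dusp5 held 2 adjoining CArG boxes, CCATATTTGG at -82 and CCTTATATGG at -72, a motif found in 1.64% of windows. Dusp2 and Dusp16 each had 1 EGR site, a motif in 5.60% of windows. The core also occurred outside a full element in Dusp1 (at -191), Dusp2, Dusp5 and Dusp16. Of all windows, 20.9% held the core, counting those in which it lay within a full element. The AP-1 site, present in 7.79% of windows, matched none of the 8. A match is a string of letters in this window and does not show binding.

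**Figure D1:**
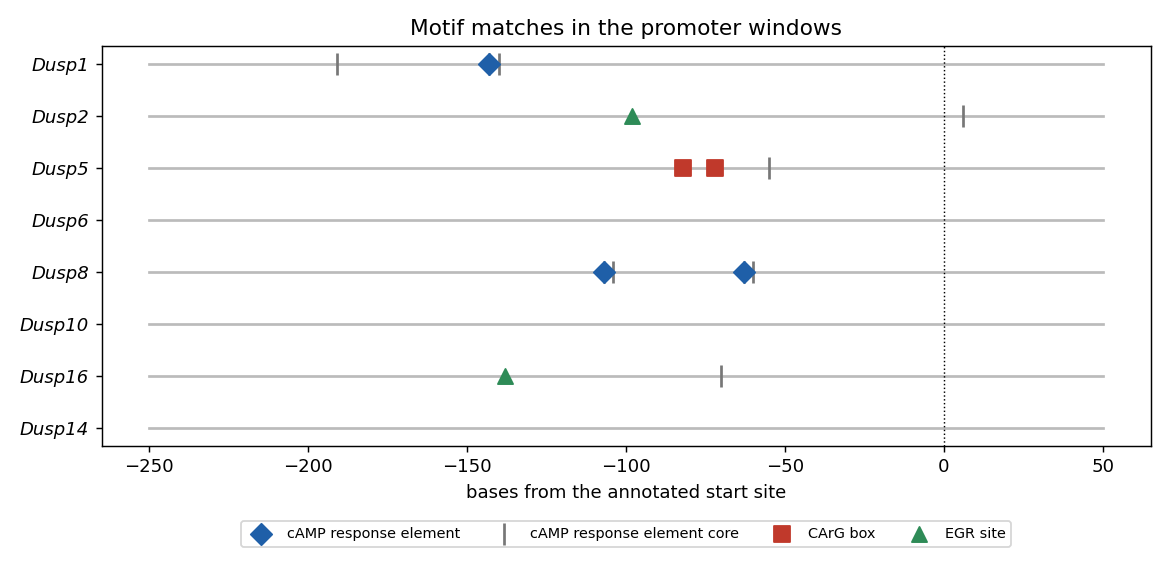
Positions of motif matches on both strands in the promoter windows of 8 members; the x axis is the distance in bases from the annotated start site (dotted line), and each row is a gene. Full cAMP response elements lie in Dusp1 and Dusp8, the 2 CArG boxes lie side by side in Dusp5, and Dusp6, Dusp10 and Dusp14 have no match in these windows.

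The first comparison, GnRH against placebo in females, asked how the phosphatase transcripts stood in females after 10 days of injections. No member was called by limma, 0 of 9, where 0.0993% of all genes tested were called, and 0 of 9 had an unadjusted p under 0.05, where 9.57% of all genes did. The members' differences had a median of 0.10 on the log2 scale, with 7 of 9 positive, against a median of 0 over all genes. In none of the 9 did the GnRH and placebo females separate without overlap, a pattern seen in 0.768% of all genes.

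Dusp5, the nuclear phosphatase specific for ERK, came closest to separating. Its lowest, median and highest values were 6.54, 6.82 and 6.95 in GnRH females, and the 5 placebo females had 6.40, 6.56, 6.40, 6.41 and 6.55. All GnRH females but animal 10 lay above every placebo female, so the groups overlapped through 1 animal. The log2 difference was 0.33 (SE 0.18, 95% interval -0.03 to 0.69, adjusted p = 0.565).

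Dusp6 ranged from 8.11 through a median of 8.32 to 8.50 in GnRH females, against 8.24, 7.89, 8.12, 8.12 and 8.21 in placebo females. The groups overlapped, although 4 of 6 GnRH females exceeded the whole placebo group. The difference was 0.20 (SE 0.10, 95% interval -0.01 to 0.40, adjusted p = 0.534).

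Dusp1, which encodes a phosphatase of all 3 MAP kinase classes and is a classical immediate early gene, had a negative difference in females. Its values ran from 10.29 through 10.63 to 11.60 in GnRH females, and were 9.98, 11.37, 11.60, 11.02 and 10.86 in placebo females. Both groups spread widely, and only 1 of 6 GnRH females lay above every placebo female. The difference was -0.15 (SE 0.24, 95% interval -0.65 to 0.35, adjusted p = 0.862), and it came to 0.01 without placebo female 3 and to -0.40 without placebo female 1.

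Dusp4 ran from 4.96 through 5.20 to 5.65 in GnRH females, and the placebo females had 5.21, 5.10, 5.07, 5.07 and 5.18. The treated animals spread on both sides of a tight placebo group, with GnRH female 8 the highest. The difference was 0.10 (SE 0.16, 95% interval -0.23 to 0.43). Dusp2, a nuclear phosphatase best known from activated lymphocytes, ran from 5.03 through 5.47 to 5.69 in GnRH females, and stood at 5.50, 5.13, 4.99, 5.20 and 5.46 in placebo females. Its groups overlapped widely, with a difference of 0.15 (SE 0.14, 95% interval -0.12 to 0.43).

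Dusp14 ran from 9.22 through 9.54 to 9.89 in GnRH females, and the placebo females had 9.66, 9.46, 9.37, 9.08 and 9.17. GnRH females 6 and 7 lay above the placebo range and the other 4 within it. Dusp16 ran from 8.64 through 9.11 to 9.63 in GnRH females, against 9.50, 8.75, 8.98, 9.20 and 9.08 in placebo females. Both groups spanned much the same range. Among the JNK and p38 phosphatases, Dusp8 differed by -0.08 (95% interval -0.36 to 0.19), Dusp10 by 0.02 (95% interval -0.16 to 0.19) and Dusp16 by 0.06 (95% interval -0.21 to 0.33). Dusp8 had 4 of 6 GnRH females below every placebo female, while GnRH female 9 stood at 8.96, above all of them. The atypical Dusp14 differed by 0.23 (95% interval -0.09 to 0.55). Adjusted p-values of these 6 genes by limma lay between 0.652 and 0.961.

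**Figure D2:**
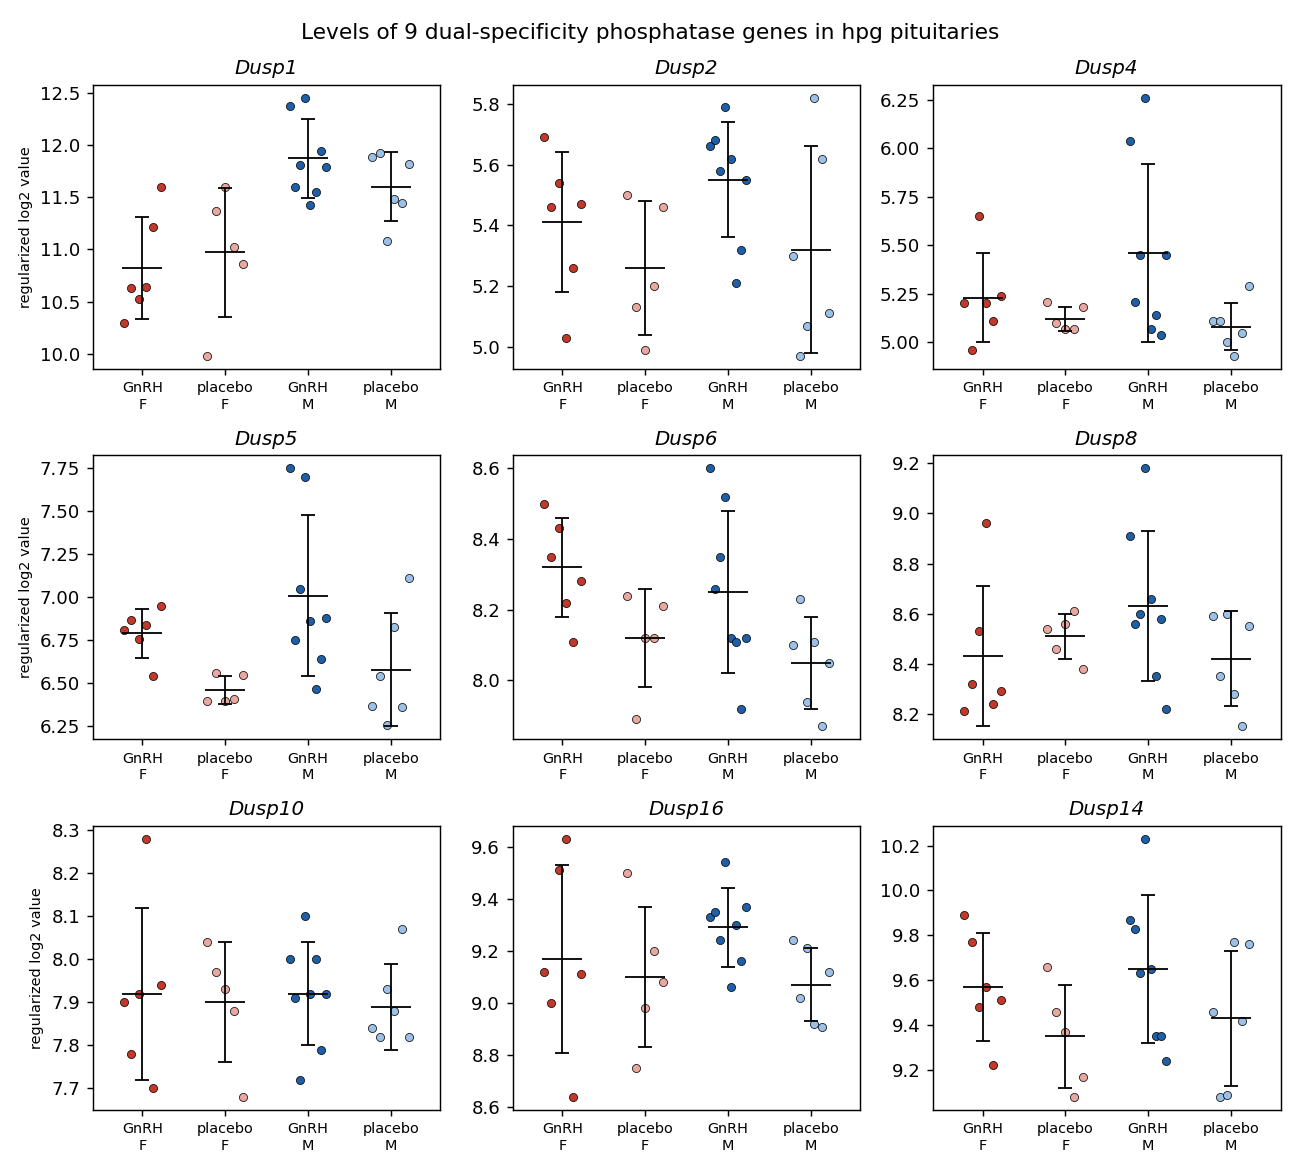
Regularized log2 values of the 9 members in each animal, by group (F female, M male; GnRH left of placebo), with the group mean and SD as a line and bars; each panel has its own scale. No GnRH group separates from its placebo group without overlap, and GnRH females come closest for Dusp5, at 6.54 to 6.95 against 6.40 to 6.56.

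In males the same question was put to 8 GnRH and 6 placebo animals. Again 0 of 9 members were called by limma, where 0.496% of all genes were, and 3 of 9 had an unadjusted p under 0.05, where 6.42% of all genes did. All 9 differences were positive, from 0.03 to 0.44 with a median of 0.22, against a median of -0.002 over all genes. No member separated the groups without overlap, which 0.402% of all genes did.

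Dusp5 had the largest difference of the 9 in males. Its lowest, median and highest values were 6.47, 6.87 and 7.75 in GnRH males and 6.26, 6.45 and 7.11 in placebo males. Only 2 of 8 GnRH males, animals 18 and 21 at 7.75 and 7.70, lay above every placebo male. The difference was 0.44 (SE 0.16, 95% interval 0.11 to 0.76, adjusted p = 0.412).

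Dusp4, a nuclear phosphatase of ERK and JNK, ran from 5.04 through 5.33 to 6.26 in GnRH males and from 4.93 through 5.08 to 5.29 in placebo males. Animals 18 and 21 were again the highest, at 6.04 and 6.26, and 4 of 8 treated males were above every placebo male. The difference was 0.38 (SE 0.14, 95% interval 0.08 to 0.67, adjusted p = 0.462).

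Dusp6 ran from 7.92 through 8.19 to 8.60 in GnRH males and from 7.87 through 8.08 to 8.23 in placebo males. Treated males 18 and 21 had 8.60 and 8.52, and 4 of 8 treated males exceeded every placebo male. The difference was 0.20 (SE 0.09, 95% interval 0.02 to 0.38, adjusted p = 0.679), the same size as in females.

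Dusp16 had the largest share of treated males above every placebo male, 5 of 8, with values from 9.06 through 9.31 to 9.54 in GnRH males and from 8.91 through 9.07 to 9.24 in placebo males. Its difference was 0.22 (95% interval -0.02 to 0.46, adjusted p = 0.816). Dusp1, at 11.87 ± 0.38 (SD, n = 8) in GnRH males and 11.60 ± 0.33 (SD, n = 6) in placebo males, differed by 0.26 (95% interval -0.18 to 0.71). The groups overlapped, with 3 of 8 GnRH males above every placebo male.

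Dusp8 ran from 8.22 through 8.59 to 9.18 in GnRH males and from 8.15 through 8.45 to 8.60 in placebo males, a difference of 0.21 (95% interval -0.03 to 0.46). Dusp14 ran from 9.24 through 9.64 to 10.23 in GnRH males and from 9.08 through 9.44 to 9.77 in placebo males, a difference of 0.22 (95% interval -0.07 to 0.50). Both genes had animal 21 at the top. Dusp2 ran from 5.21 through 5.60 to 5.79 in GnRH males and from 4.97 through 5.21 to 5.82 in placebo males, so that no treated male exceeded placebo male 15. Its difference was 0.23 (95% interval -0.01 to 0.48), and that of Dusp10 was 0.03 (95% interval -0.13 to 0.18). Adjusted p-values of these 4 genes by limma lay between 0.808 and 0.999.

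GnRH males 18 and 21 were the 2 highest of the 8 treated males for 6 of the 9 members, Dusp1, Dusp4, Dusp5, Dusp6, Dusp8 and Dusp14, and animal 21 was the highest for 7. Without both, a choice made with their values known, 8 of 9 differences were positive and their median was 0.09, with 0 members called and 0 at an unadjusted p under 0.05 by limma (0.199% of all genes were called). With all animals 6.42% of all genes were under that unadjusted level, and the share without both was not worked out. Dusp4 then had a difference of 0.15, Dusp5 of 0.20, Dusp6 of 0.09, Dusp1, Dusp8 and Dusp14 of 0.08 each and Dusp10 of -0.01, whereas Dusp2 and Dusp16 had 0.18 and 0.17. Both animals lay above their group mean for all 9 members, by 0.32 and 0.46 on average.

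**Figure D3:**
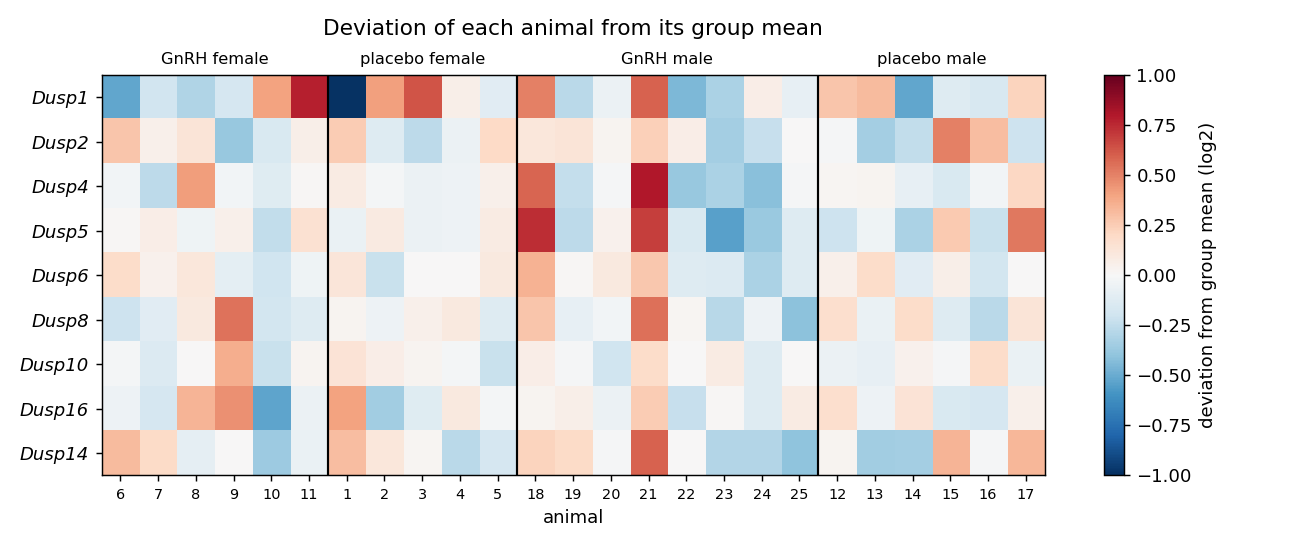
Deviation of each animal (columns, by group) from its group mean for each member (rows), in regularized log2 units, red above and blue below the mean. GnRH males 18 and 21 are above their group mean for 9 of 9 members, and placebo female 1 and GnRH female 11 are the lowest and highest for Dusp1.

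The GnRH effect averaged over the sexes uses all 25 animals and gives narrower intervals. Again 0 of 9 members were called by limma, where 1.71% of all genes were, while 5 of 9 had an unadjusted p under 0.05, where 12% of all genes did. All 9 differences were positive, with a median of 0.19 against -0.001 over all genes. Dusp5 had the largest, 0.38 (SE 0.12, 95% interval 0.14 to 0.63, adjusted p = 0.118), a 1.30-fold difference on this scale. Its adjusted p lay between 0.0507 and 0.221 when single animals were left out. Dusp6 followed in p with 0.20 (SE 0.07, 95% interval 0.06 to 0.33, adjusted p = 0.159).

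Dusp4, Dusp14 and Dusp2 averaged 0.24, 0.22 and 0.19, with adjusted p = 0.361, 0.397 and 0.390. Without GnRH males 18 and 21, 7 of 9 averaged differences were positive and 2 of 9 had an unadjusted p under 0.05, with 0 called (1.36% of all genes were called). With all animals 12% of all genes were under that unadjusted level, and the share without these 2 was not worked out. The averaged differences were then 0.12 for Dusp4, 0.26 for Dusp5, 0.15 for Dusp6, 0.15 for Dusp14 and 0.17 for Dusp2. Dusp16 averaged 0.14, Dusp8 0.07, Dusp1 0.06 and Dusp10 0.02. The intervals bound what these data allow: for Dusp10 the averaged effect lay between -0.09 and 0.14, and for Dusp1, the member with the widest spread, between -0.28 and 0.39.

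**Figure D4:**
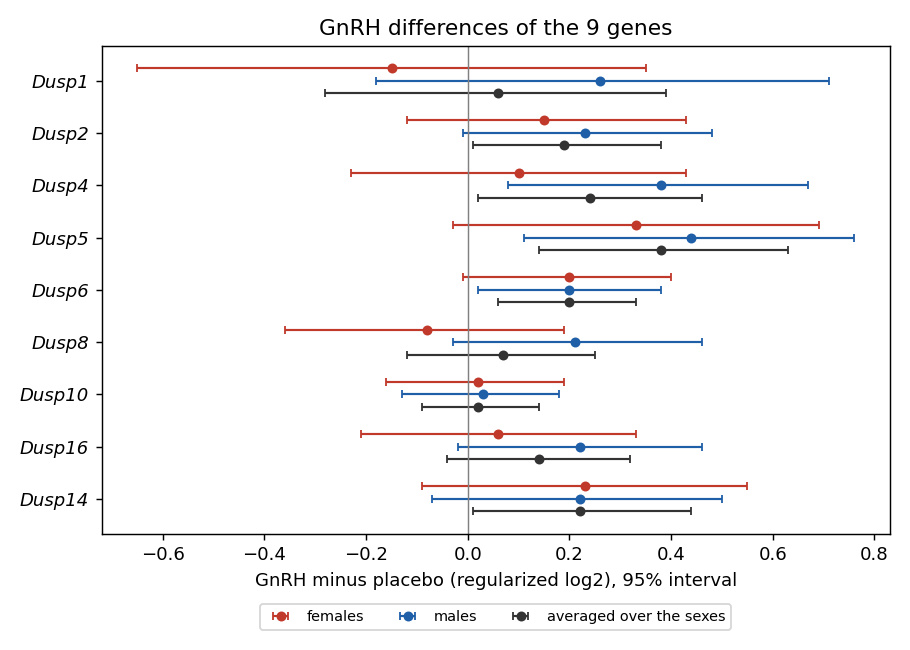
GnRH minus placebo for each member (rows) in regularized log2 units, with 95% intervals from limma, in females (red), males (blue) and averaged over the sexes (black). Dusp5 has the largest averaged difference, 0.38, and Dusp10 the smallest, 0.02; intervals clear of 0 were not past the threshold once adjusted over all 19141 genes.

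Whether the sexes differed in their GnRH effect was tested as 1 contrast, the effect in males minus that in females. No member was called by limma, 0 of 9, as for all genes (0%), and 0 of 9 had an unadjusted p under 0.05, where 2.76% of all genes did. Dusp1 had the largest difference, with an effect of 0.26 in males and -0.15 in females, 0.41 apart (SE 0.32, 95% interval -0.25 to 1.08, adjusted p = 0.999). It was 0.25 without placebo female 3, 0.66 without placebo female 1 and 0.23 without GnRH males 18 and 21. Dusp8 followed with 0.21 in males and -0.08 in females, 0.30 apart (95% interval -0.07 to 0.67), and 0.16 apart without GnRH males 18 and 21. For Dusp6 the contrast was 0.00 (95% interval -0.27 to 0.27) and for Dusp14 it was -0.01 (95% interval -0.44 to 0.42).

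Males were also set against females within each treatment, the comparison within GnRH having been added after the data were seen. In placebo animals 0 of 9 members were called by limma (0.047% of all genes), and Dusp1 alone had an unadjusted p under 0.05 (3.07% of all genes). In GnRH animals 0 of 9 were called (0.0522% of all genes), and Dusp1 was again the 1 member under that level (5.53% of all genes).

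Dusp1 was the 1 member in which neighbouring groups in the order of levels differed by more than the larger SD. Its mean was 11.87 ± 0.38 (SD, n = 8) in GnRH males, 11.60 ± 0.33 (SD, n = 6) in placebo males, 10.82 ± 0.49 (SD, n = 6) in GnRH females and 10.97 ± 0.62 (SD, n = 5) in placebo females. The gap between placebo males and placebo females, 0.63, exceeded the larger SD of 0.62, while the groups of the same sex differed by less than their spread. The fitted placebo difference, 0.64, was 0.39 without placebo female 1 and at most 0.80 with another animal left out. Within GnRH animals, 5 of 8 males lay above every female, and GnRH female 11 at 11.60 made the groups overlap. Males exceeded females by 1.05 in GnRH animals (SE 0.22, 95% interval 0.61 to 1.49, 2.07-fold, adjusted p = 0.0697) and by 0.64 in placebo animals (SE 0.24, 95% interval 0.14 to 1.13, adjusted p = 0.999). The GnRH contrast passed the threshold by limma without GnRH female 10 (1.13, adjusted p = 0.0415) or 11 (1.21, adjusted p = 0.0115). These were the 2 GnRH females with the highest Dusp1 values, 11.21 and 11.60, so leaving out either widens the difference. Without GnRH males 18 and 21, the 2 highest GnRH males, the contrast was 0.87 (adjusted p = 0.598 by limma). Fos and Egr1, immediate early transcription factor genes, differed between GnRH males and females by 1.18 (adjusted p = 0.325 by limma) and 0.96 (adjusted p = 0.726). Between placebo males and females they differed by 0.58 and 0.61 (adjusted p = 0.999 for each by limma). The part of Fos and Egr1 in the Dusp1 result was not tested.

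The other 8 members differed between the sexes by -0.09 to 0.11 in placebo animals, all with adjusted p = 0.999 by limma. In GnRH animals they differed by -0.07 to 0.23, the largest being Dusp4 (95% interval -0.06 to 0.52) and Dusp5 (0.22, 95% interval -0.10 to 0.54). Without GnRH males 18 and 21 these came to 0.00 for Dusp4 and -0.02 for Dusp5.

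For the other 8 members, neighbouring groups in the order of levels differed by less than the larger SD. Dusp2, Dusp4, Dusp5, Dusp8, Dusp14 and Dusp16 had their highest mean in GnRH males, and Dusp6 in GnRH females. Dusp10, at 7.92 ± 0.20 (SD, n = 6) in GnRH females, 7.90 ± 0.14 (SD, n = 5) in placebo females, 7.92 ± 0.12 (SD, n = 8) in GnRH males and 7.89 ± 0.10 (SD, n = 6) in placebo males, was the most even.

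Likeness between genes was then read from the animals themselves, taking each value as its deviation from its group mean, which removes the differences between group means and leaves the spread within each group. For each member, the 3 genes of the table with the highest Pearson r over 25 libraries were named, as a description. Each such r is the top of a search over all tested genes but predicted ones. How high r gets in such a search for unrelated genes was not worked out. Dusp1 went with Junb (r = 0.89), Ovca2 (0.82) and Fos (0.80), and these r were 0.86, 0.86 and 0.82 over the 23 libraries without GnRH males 18 and 21. Junb and Fos encode subunits of AP-1. Dusp4 went with Fosl1, another AP-1 subunit (0.90), Zfp184 (0.86) and Ifrd1 (0.86), and Dusp5 with Gpr3 (0.87), Trib1 (0.84) and Gem (0.82). Without GnRH males 18 and 21 the r values lay between 0.54 and 0.66 for Dusp4 and between 0.57 and 0.65 for Dusp5. With Atf3, a stress-responsive transcription factor gene, r was 0.73 for Dusp4, 0.69 for Dusp5 and 0.65 for Dusp6, and without both animals 0.36, 0.30 and 0.35.

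Dusp6 went with Ccdc71l (0.85), Adamts1 (0.81) and Tiparp (0.79), and Dusp8 with Rasgef1c, Elmsan1 and Itpkc (0.79 to 0.80). Dusp2 followed Mt2 (0.81), a metallothionein, Sap30 (0.80) and Tsc22d3 (0.79), a gene known for its induction by glucocorticoids. With Fos, r was -0.46 for Dusp2 and -0.40 for both Dusp14 and Dusp16. Without GnRH males 18 and 21 these were -0.52 for Dusp2, -0.57 for Dusp14 and -0.45 for Dusp16. Dusp14 followed Tmem198 (0.87), Crem (0.87), whose gene encodes cAMP-responsive regulators, and Fam107b (0.84). Dusp16 had the highest r of all, with Bdp1 (0.93), Clcn3 (0.93) and Pdpk1 (0.92), and Dusp10 the lowest, with Ddx19b (0.74), Zeb1 (0.73) and C1ql3 (0.72). Genes within a library share its scaling and composition, and the depth of the libraries is unknown.

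Among the members themselves, 36 pairs were compared by the same deviations over 25 animals, and 30 had a positive r. With permutation within groups and adjustment over the 36 pairs, 7 pairs passed by Pearson's r and 0 by Spearman's rho. Such shares were not worked out for pairs of other genes, so these counts do not set the members apart from genes in general. Dusp5 and Dusp14 had r = 0.67 (permutation p = 0.0013, adjusted p = 0.023) and rho = 0.57 (permutation p = 0.0074, adjusted p = 0.0606). Their r was 0.54 (permutation p = 0.0252) without animals 18 and 21, the 2 farthest from the median for Dusp5. Dusp4 and Dusp5 had r = 0.76 (permutation p = 0.00256, adjusted p = 0.023) and rho = 0.60 (permutation p = 0.00548, adjusted p = 0.0606). Without the same 2 animals r was 0.33 (permutation p = 0.126). Within the 14 GnRH animals r was 0.84, and within the 11 placebo animals, which do not include those 2, it was 0.45. Dusp4 and Dusp6 had r = 0.70 (permutation p = 0.00197, adjusted p = 0.023) and rho = 0.61 (permutation p = 0.00386, adjusted p = 0.0606), and r = 0.41 (permutation p = 0.0811) without them, with 0.79 in GnRH and 0.26 in placebo animals. Dusp5 and Dusp6 had r = 0.66 (permutation p = 0.00356, adjusted p = 0.0256) and rho = 0.52 (permutation p = 0.0144, adjusted p = 0.0747), and r = 0.33 (permutation p = 0.148) without them, with 0.83 in GnRH and 0.17 in placebo animals. The difference of r between the treatments was not tested. The other 3 pairs past the threshold by r were Dusp2 and Dusp14 (r = 0.56, permutation p = 0.00723, rho = 0.52, permutation p = 0.0145), Dusp8 and Dusp16 (r = 0.57, permutation p = 0.00225, rho = 0.55, permutation p = 0.00613) and Dusp4 and Dusp16 (r = 0.44, permutation p = 0.0055, rho = 0.51, permutation p = 0.00841). Their adjusted p for r were 0.0372, 0.023 and 0.033, and for rho 0.0747, 0.0606 and 0.0606. Without the 2 animals farthest from the median for the first gene named in each pair, their r were 0.56, 0.35 and 0.49. Animals far from the median only for the second gene stayed in. Dusp1 had r between -0.32 and 0.43 with the other 8 members, and none of its pairs passed.

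**Figure D5:**
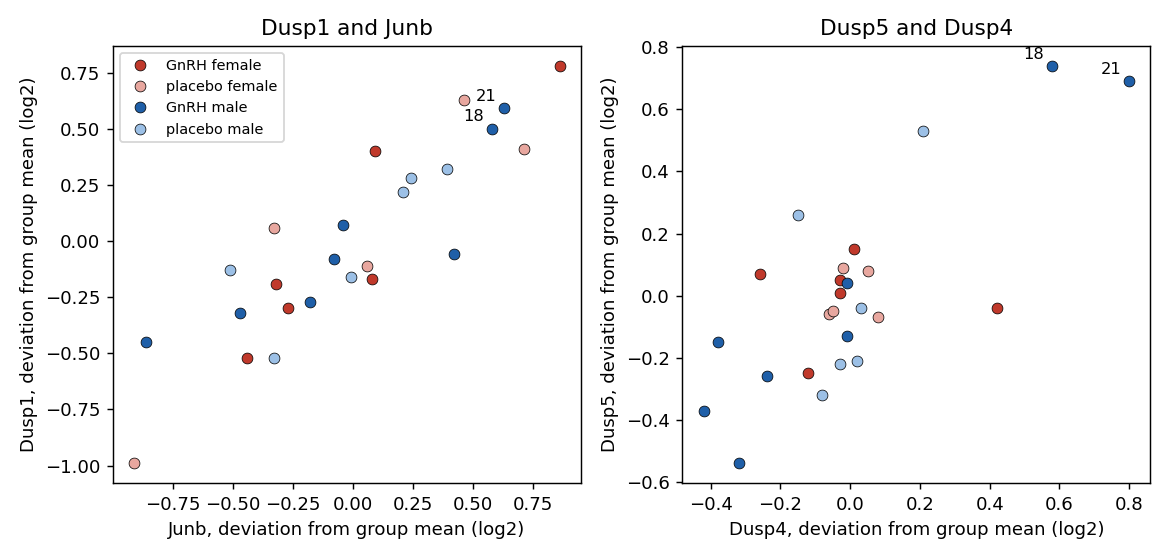
Deviations from the group mean in regularized log2 units for Dusp1 against Junb (left) and Dusp5 against Dusp4 (right), 1 point per animal coloured by group, with GnRH males 18 and 21 numbered. Dusp1 and Junb lie along 1 diagonal across animals of all 4 groups (r = 0.89), while Dusp4 and Dusp5 have r = 0.76 with animals 18 and 21 and 0.33 without them.

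The rest of the pathway was read from lists of its parts. Of the other dual-specificity phosphatases, 13 of 16 were tested and 0 were called in any of the 6 contrasts by limma, with a median averaged GnRH difference of 0.05; Dusp26 and Dusp27, which had the smallest p in the average, differed by 0.08 and -0.08. Of all genes, between 0% and 1.71% were called in the 6 contrasts. At an unadjusted p under 0.05 there were 1 in females (9.57% of all genes), 0 in males (6.42%) and 0 in the average (12%). The effect in males minus that in females gave 2 (2.76% of all genes). Males against females gave 1 under placebo (3.07%) and 3 under GnRH (5.53%). Whether these counts differ from the shares of all genes was not tested. Of the 9 tested phosphatases of other families that act on MAP kinases, 0 were called in the average, where 1.71% of all genes were, and 2 had an unadjusted p under 0.05, Ppp2ca (0.07) and Ppm1l (-0.16), where 12% of all genes did. Of 10 MAP kinase kinases and RAF kinases 0 were called, with 2 under that level, Map2k3 (0.18) and Braf (0.11). With 9 and 10 genes tested, counts of 2 are too small to be told apart from the 12% of all genes.

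Among the 14 MAP kinases themselves, 2 rose in the average over the sexes, where 1.71% of all genes were called in either direction. Mapk11, the beta form of p38, rose by 0.35 (SE 0.06, adjusted p = 0.00109), and by 0.42 (SE 0.08, adjusted p = 0.00959) in males, and leaving out any 1 animal kept both calls. Mapk12, the gamma form of p38, rose by 0.19 (SE 0.05, adjusted p = 0.0420). That call was lost in 16 of 25 fits with 1 animal left out, and without GnRH males 18 and 21 (0.18, adjusted p = 0.0816). The Sprouty and Spred inhibitors had 1 of 6 called, against 1.71% of all genes: Spry2, at 0.24 in the average (SE 0.06, adjusted p = 0.0277). It was lost in 6 of 25 such fits, and without GnRH males 18 and 21 (0.21, adjusted p = 0.0678).

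Of 26 immediate early and MAP kinase-responsive transcription factor genes, 5 rose in the average over the sexes (1.71% of all genes were called in either direction), with a median difference of 0.30 over the list, against 0 of the 9 phosphatases. Atf3 rose by 2.08 (adjusted p = 0.000638), Fosb by 1.28 (adjusted p = 0.0125), Nr4a3 by 1.22 (adjusted p = 0.00109) and Klf10 by 0.49 (adjusted p = 0.000698). Srf, the gene of serum response factor, had 0.35 (adjusted p = 0.0493 by limma) and missed the threshold in 18 of 25 fits without 1 animal. Without GnRH males 18 and 21 Srf was past the threshold, at 0.25 (adjusted p = 0.0083 by limma). The list's median in males was 0.46 and in females 0.12, against 0.22 and 0.10 for the 9 phosphatases. The difference between the lists was not tested. Without GnRH males 18 and 21 the phosphatases' male median was 0.09, and the list's was not worked out. In males, Atf3 then had 1.54 instead of 2.18, Nr4a3 1.09 instead of 1.44 and Klf10 0.52 instead of 0.51. These were the list's 3 calls in males, and then had adjusted p = 0.0606, 0.0522 and 0.0606 by limma.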

How the data were processed

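Polyadenylated RNA of 25 whole pituitaries was sequenced, 1 library per animal. Depletion of ribosomal and globin RNA preceded library construction, per the labels' protocols, and RNA integrity numbers were above 8.2 (median 9.1). The submitters' processing notes name bcl2fastq, STAR, featureCounts and build mm10; their versions, the annotation and the strand setting are not stated there. The deposited values are regularized log2 values, per the name the authors gave the table, scaled between libraries and shrunken by the authors. No counts were analysed, so depth is unknown and no counting interval is given. GENCODE M21 places another gene over 5 members (Dusp1, Dusp5, Dusp8, Dusp10, Dusp16), whose reads may not be separable. The series' text speaks of 5 to 7 animals per group, while the labels give 8 GnRH males and were followed.

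The filter was a mean of 3 or more, which 19141 genes met. Library medians lay between 8.09 and 8.13, and correlations between libraries between 0.992 and 0.998. A model with 1 mean per group was fitted to all genes with limma 3.58.1 in R 4.3.3 (trended variance, two-sided, Benjamini-Hochberg over all genes tested, threshold 0.05). On simulated data over 19141 genes it recovered 90% of genes changed by 0.5 in females and 98% in males. That holds for genes in general, whose median SE was 0.0706 in females and 0.063 in males; the members' SEs ran from 0.08 to 0.24, so it does not give the recovery for these 9 genes. Males against females under GnRH was added after the data were seen. Permutations (100000) ran within groups in numpy 2.4.6. The members and lists were chosen with earlier results of these data known. Named genes are the 9 members, list genes past the threshold (otherwise the 2 with the smallest p), 5 context genes and the 3 genes most like each member, without predicted genes. Quantile normalization, other filters, variance models, row choices and left-out animals were tried as alternatives.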

Additional observations from a re-analysis of the deposited data

How the results depend on the processing

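No paired analysis was possible because no animal number is shared between groups. In every alternative run, 0 of 9 members passed the threshold for GnRH in females, in males, averaged over the sexes and between the sexes, and for males against females under placebo. With a mean of at least 6 required, Dusp2 and Dusp4 were not tested. For males against females under GnRH the count was 0 to 1 when single animals were left out, and 0 otherwise, the 1 being Dusp1. Quantile normalization put the median of all genes between -0.007 and 0, and differences near 0 changed sign under it at 0.00 for Dusp6 between the sexes and for Dusp10 between GnRH males and females.

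Without GnRH males 18 and 21, signs turned for Dusp10 in males (-0.01) and between the sexes (-0.03), for Dusp5 (-0.13) and Dusp6 (-0.10) between the sexes, for Dusp1 (-0.03) and Dusp8 (0.00) in the average, and for Dusp5 (-0.02), Dusp10 (-0.04), Dusp14 (-0.06), Atf3 (-0.10) and Gnrhr (0.01) between GnRH males and females. Leaving out single animals gave ranges that cross 0 for Dusp1 (-0.40 to 0.01), Dusp10 (-0.06 to 0.06), Dusp16 (-0.03 to 0.17) and Egr1 (-0.22 to 0.33) in females; for Dusp6 (-0.05 to 0.06), Dusp10 (-0.03 to 0.08) and Dusp14 (-0.09 to 0.06) between the sexes; for Dusp1 (-0.07 to 0.14), Dusp10 (-0.01 to 0.04) and Fos (-0.25 to 0.05) in the average; for Dusp2 (-0.04 to 0.13), Dusp10 (-0.06 to 0.03) and Dusp16 (-0.12 to 0.07) under placebo; and for Dusp10 (-0.04 to 0.07), Dusp14 (-0.01 to 0.14) and Gnrhr (-0.14 to 0.08) under GnRH. The cause of these turns was not tested.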
